A study of Mus musculus with 2 samples.

Results

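The regions described here are the tallest peaks of an anti-FLAG map, made for the zinc-finger repressor PARIS, on mouse hippocampal chromatin. They were chosen by their maximum signal, the highest coverage that the authors' peak list gives inside a peak, with a threshold of 400. There were 771 such peaks among 99797, or 0.773%, and they held 5.53% of the total signal of all peaks (coverage summed over the bases of a peak). The map was made by CUT&Tag, in which an antibody brings a fusion of protein A and the Tn5 transposase (pA-Tn5) to its target and the transposase inserts sequencing adapters into the DNA nearby. The series has 1 anti-FLAG library and, as the negative control, 1 anti-IgG library. The source of both was untreated hippocampus, the strain was C57BL/6J and the genotype was CamK-PARIS. The labels give no promoter, FLAG position, age, sex, number or pooling of animals, and no wild-type group. Peaks of the anti-FLAG library were called by the authors with the IgG library as control, and IgG coverage was not analysed here. How much of the anti-FLAG signal comes from PARIS was not tested. With 1 library per antibody there is no replicate error. The 95% intervals given below are Wilson intervals that cover counting error over peaks only, the sequencing depth is unknown, and no test was made, because peaks of 1 library are not replicates and were selected on their own signal.

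PARIS, encoded by Zfp746, is a KRAB zinc-finger protein that represses transcription and is a substrate of the ubiquitin ligase parkin. It is best known for repressing Ppargc1a, the gene of the mitochondrial regulator PGC-1α, through an A/T-rich insulin response sequence. Mammalian promoters often lie in CpG islands, where the GC-rich boxes of the SP and KLF zinc-finger factors are common. Enhancers far from genes in neurons more often carry sites for AP-1, the dimer of FOS and JUN proteins.

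Examples of 3 kinds of summit sequence are printed first because the later results turn on them. These kinds do not cover all members. In windows of 200 bp, 440 of 770 members had neither an SP/KLF box nor an AP-1 site, and 21 were tandem repeats. Each window of 101 bp is centred on the summit (the midpoint of the stretch at maximum signal), lies outside annotated exons, and is the plus strand of the RefSeq genome GRCm38.p6 (mm10), 5′ to 3′. The first kind is a promoter with an SP/KLF box, and capitals mark the box (GGGCGG on either strand):
Klf7, chr1:64121682-64121782: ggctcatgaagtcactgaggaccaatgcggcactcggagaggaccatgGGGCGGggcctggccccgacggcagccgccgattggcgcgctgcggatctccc
Tsc22d1, chr14:76414289-76414389: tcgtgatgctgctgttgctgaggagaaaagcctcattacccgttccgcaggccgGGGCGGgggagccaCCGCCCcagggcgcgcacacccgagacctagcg
Sin3a, chr9:57076017-57076117: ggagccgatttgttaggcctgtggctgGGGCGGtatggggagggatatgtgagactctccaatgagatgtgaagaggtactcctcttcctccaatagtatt

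The second kind lies more than 3 kb from the assigned transcription start site (TSS) and carries an AP-1 site (TGANTCA, with N any base), which is in capitals:
Cmip, chr8:117332418-117332518: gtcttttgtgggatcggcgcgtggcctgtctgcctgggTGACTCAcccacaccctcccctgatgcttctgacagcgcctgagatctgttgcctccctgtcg
Otub2, chr12:103376835-103376935: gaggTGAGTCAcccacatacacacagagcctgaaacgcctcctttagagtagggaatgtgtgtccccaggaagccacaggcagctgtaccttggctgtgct
4930554H23Rik, chr7:63345984-63346084: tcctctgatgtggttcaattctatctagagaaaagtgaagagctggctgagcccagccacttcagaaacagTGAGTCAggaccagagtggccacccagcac
Kcns2, chr15:34829572-34829672: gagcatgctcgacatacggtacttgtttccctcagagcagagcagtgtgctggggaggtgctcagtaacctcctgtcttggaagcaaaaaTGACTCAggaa

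The third kind, which includes the tallest peak of the library, is a tandem repeat, and capitals mark the first copy of the repeat unit in the window:
Wbp11, chr6:136816748-136816848: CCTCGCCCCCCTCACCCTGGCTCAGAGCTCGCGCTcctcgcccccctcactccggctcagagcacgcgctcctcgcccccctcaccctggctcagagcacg
A630001O12Rik, chr8:126856767-126856867: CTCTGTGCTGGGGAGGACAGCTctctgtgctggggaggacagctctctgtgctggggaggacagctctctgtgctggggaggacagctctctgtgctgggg
Lrig3, chr10:125903934-125904034: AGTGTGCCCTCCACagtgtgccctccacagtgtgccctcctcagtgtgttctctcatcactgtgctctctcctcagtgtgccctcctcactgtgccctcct

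A further set shows members with the insulin response sequence, searched as TATTTTT or TATTTTG on both strands because of its link to PARIS, with the match in capitals:
Atp2b4, chr1:133842419-133842519: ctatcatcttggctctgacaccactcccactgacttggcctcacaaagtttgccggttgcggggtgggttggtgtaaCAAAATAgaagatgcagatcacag
Srrm4, chr5:116841017-116841117: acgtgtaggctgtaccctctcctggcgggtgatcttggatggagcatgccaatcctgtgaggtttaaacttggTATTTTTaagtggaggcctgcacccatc
Kirrel3, chr9:34539004-34539104: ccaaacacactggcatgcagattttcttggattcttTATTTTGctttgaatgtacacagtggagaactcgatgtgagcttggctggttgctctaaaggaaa
A match in these sequences is a description and was not taken as a binding site.

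Maximum signal among the members ran from 400 to 2395, with a median of 473 and quartiles of 430 and 554.5 in the authors' coverage units, whose scaling is not stated. The distribution was dense at its lower end, with 11 peaks at 400 and 10 at 399, and 79 peaks between 400 and 409 beside 80 between 390 and 399. With ties ordered by total signal, the 5 peaks just inside the threshold were assigned to Mir3089, Fndc7, Ccl1, Mir7077 and Gcnt1, all at 400. Those just outside were assigned to Acot11, Bicral, Rrm2b, Myo3a and Sorcs3, all at 399. The threshold therefore cut through a continuous range of heights.

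The tallest peak, 2395, lay at chr6:136816507-136817643 in intron 10 of 11 of Wbp11, which encodes a splicing factor. The next was 1478, near the TSS of Slc8a2 (distance 9 bp), which encodes a sodium/calcium exchanger of the neuronal membrane. Gfra2, a receptor for a GDNF-family neurotrophic factor, had a peak of 1450 with its summit 138 bp upstream of the TSS (chr14:70889012-70890670). Klf7, a Krüppel-like factor of developing neurons, had 1263 at 240 bp upstream (chr1:64119676-64122374). The next 3 members were in intron 2 of 2 of the long noncoding RNA gene 1700069L16Rik (1234), in an intron of A630001O12Rik (1193), and 18 bp upstream of Dazap2 (1149). Bhlhe40, a transcriptional repressor of the circadian clock, had a single peak in the whole list, and that peak reached 1046 at 124 bp upstream of the TSS.

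The rest of the top 20 held 6 promoter peaks within 3 kb of a TSS and 6 others. Promoter peaks there were those of Tsc22d1, a leucine-zipper regulator (992), Itsn1, an endocytic scaffold (986), Sin3a, the scaffold of a histone deacetylase corepressor complex (983), Slc25a42, a mitochondrial carrier (976), and Dlg4, which encodes the postsynaptic scaffold PSD-95 (887). The Sin3a summit, 306 bp upstream of the assigned TSS, was 54 bp from the start of the noncoding gene 2700012I20Rik in GENCODE M21. The peak assigned to Zbtb9 (969) was 1666 bp upstream of its TSS. The others were away from promoters, in intron 1 of Arhgef17 (974) and Cmip (950), in an intron of Dhrsx (967), and between genes near Lrig3 (968), Neurl1b (910) and Tut7 (858). Dhrsx was on an unlocalized sequence of chromosome 4 and was the only member without a sequence window, so the sequence results below cover 770 members.

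**Figure D1:**
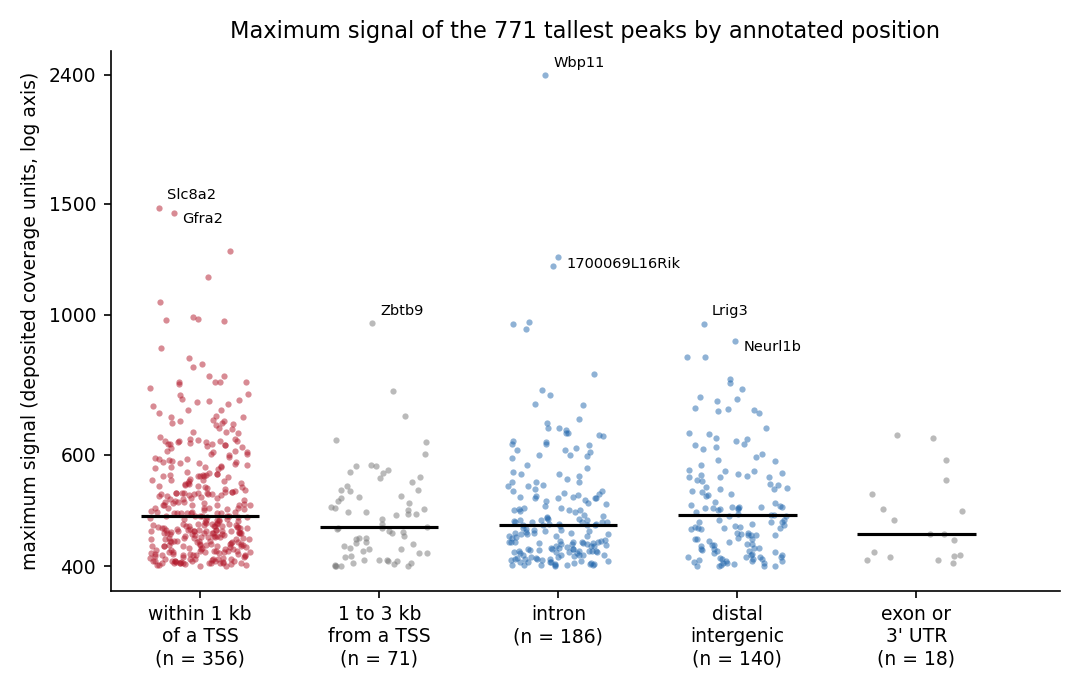
Maximum signal (deposited coverage units, log axis) of each of the 771 tallest peaks, as 1 point per peak, by the position given in the deposited annotation; black lines are medians. The median was 481 within 1 kb of a TSS, and members of every class crowd towards the threshold of 400, with Wbp11 alone above 2000.

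Height and size were related but not the same property. Of the 771 members, 422 (54.7%) were also among the same number of peaks with the highest total signal. The Wbp11 peak was 1137 bp wide and ranked 34 by total signal, whereas the peak with the highest total signal was the one near Stac3, with a maximum of 568 and a width of 6161 bp. Median width was 1126 bp (range 225 to 6161), and the median of all other peaks was 360 bp. The widest members after Stac3, a gene of muscle excitation-contraction coupling, were near Dtx3 (5879 bp), the cell-cycle gene Ccnd2 (4879 bp), the POU factor gene Pou2f2 (4738 bp) and the microRNA gene Mir129-2 (4524 bp). Members were sharply topped, with a region of maximum signal of 18 bp (median) against 180 bp in the other peaks. At 300 to 399 the median was 39 bp. In 63.8% of the other peaks the total signal was at least 0.99 of maximum signal times width, a nearly flat shape. That shape was found in 0 of 771 members and 0 of 1521 peaks at 300 to 399. These widths and shapes come from the same coverage as the rule and are a description.

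Members lay near gene starts more often than the other peaks did. In the deposited annotation 356 of 771 members (46.2%, 42.7 to 49.7) were within 1 kb of a TSS, against 15.1% (14.9 to 15.3) of 99011 other annotated peaks. A further 45 were 1 to 2 kb and 26 were 2 to 3 kb away, so that the promoter class of up to 3 kb held 427 members (55.4%, 51.9 to 58.9) and 24.4% of the other peaks. Introns held 186 members (24.1%, other peaks 38.1%), of which 68 were in the first intron, and distal intergenic sequence held 140 (18.2%, 15.6 to 21.0, other peaks 32.0%). Exons held 13 members, 3′ UTRs held 5, and 5′ UTRs outside the promoter class held 0. The intervals of members and of all other peaks did not overlap for the promoter, intron and distal intergenic classes. At 300 to 399 the promoter class held 48.3% (45.8 to 50.8), below the members' interval. Introns held 28.5% (26.3 to 30.9) there, overlapping the members' 21.2 to 27.3. Distal intergenic sequence held 19.6% (17.7 to 21.7), which also overlaps the members' interval.

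The share near a TSS differed between bands of signal, mostly below the threshold. It was 15.4% at 100 to 199, 30.3% at 200 to 299 and 38.6% (36.2 to 41.1) at 300 to 399. Among the members it was 40.4% (34.8 to 46.2) at 400 to 449, 47.1% at 450 to 499, 49.4% at 500 to 599, 53.1% (43.9 to 62.0) at 600 to 799 and 52.0% (33.5 to 69.97) among the 25 peaks at 800 or more. Adjacent bands of members had overlapping intervals, and so had the lowest band of members and the band just under the threshold.

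**Figure D2:**
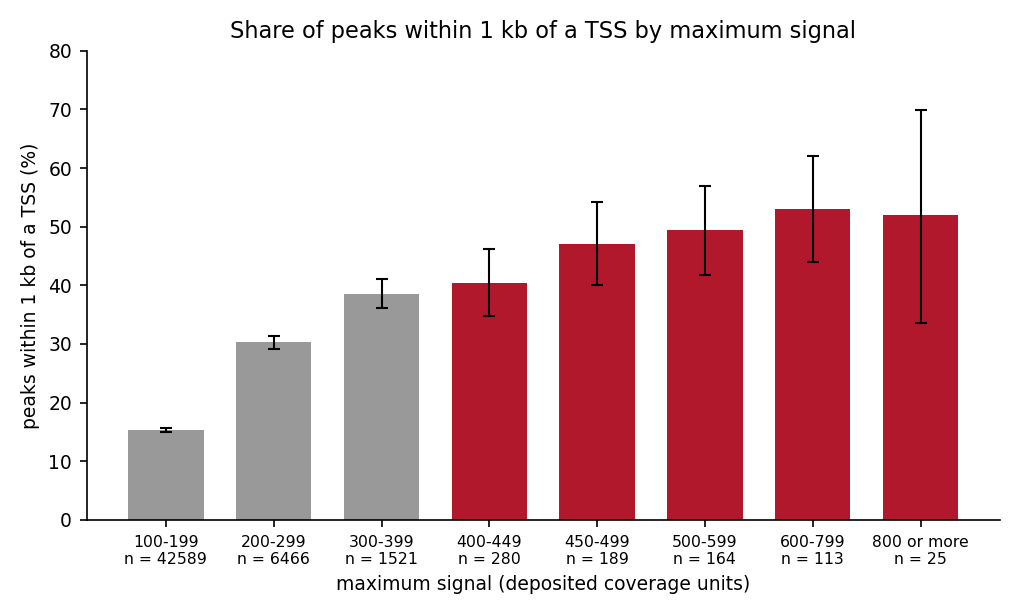
Share of peaks within 1 kb of a TSS (percent) in bands of maximum signal (deposited coverage units); red bars are the tallest peaks, grey bars are lower bands, and error bars are Wilson 95% intervals over peaks. The share goes from 15.4% at 100 to 199 to 53.1% at 600 to 799, and the intervals of the red bars overlap each other.

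Summits of the members at promoters sat mostly on the upstream side. Of the 356 members within 1 kb of a TSS, 201 (56.5%, 51.3 to 61.5) had the summit upstream, 120 (33.7%, 29.0 to 38.8) downstream and 35 (9.83%, 7.15 to 13.4) on the TSS. In the other peaks within 1 kb these shares were 40.2%, 39.8% and 20.01%. The stretch at maximum signal had a median of 20 bp in these members and 146 bp in the other promoter peaks, and its part in these shares was not tested. Peaks at 300 to 399 had a split similar to that of the members. Of 587 such peaks within 1 kb, 320 had the summit upstream, 190 downstream and 77 on the TSS. GENCODE M21 placed TSSs on both strands within 1 kb of 84 of the 356 summits (23.6%, 19.5 to 28.3), against 14.5% of the other peaks at promoters. Over peaks at any distance, both strands had one at 10.9% (8.90 to 13.3) of members. At 300 to 399 it was 7.96% (6.70 to 9.42), an interval that overlaps that of the members. The order and spacing of the starts on the opposite strands were not examined, so these places were not classed as bidirectional promoters. By the same annotation 16 of 343 members assigned beyond 3 kb were within 1 kb of a GENCODE TSS, among them the peak of 730 assigned to Klf10 over 83900 bp, which was 332 bp from the start of the noncoding gene Gm26863.

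Among the 344 members beyond 3 kb the median distance to the assigned TSS was 18846 bp, and it was 27038 bp among other peaks beyond 3 kb. Farthest from the assigned TSS were members in introns of the receptor phosphatase gene Ptprd (562031 bp, maximum signal 472) and of Lrrc4c, which encodes a netrin-G ligand of synapses (300919 bp, 473), followed by the one assigned to Rps24 (288164 bp, 480). Upstream, the farthest were assigned to Srrm4, a regulator of neuronal microexon splicing (-249247 bp, 529), and to Adgrl2, a latrophilin adhesion receptor (-242776 bp, 407). The median distance was 1530 bp over all members and 14925 bp over the other peaks.

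GC content was higher at the summits than beside them. In windows of 200 bp the 770 members had a mean of 59.96% ± 7.92 (SD over peaks), against 49.6% and 49.8% in windows centred 1000 bp to the left and right, a difference of 10.3 percentage points. The other peaks had 48.9% ± 8.87 at the summit and a difference of 3.39 points. GC content at the summit was above both flanks in 530 members (68.8%, 65.5 to 72.0) and in 45.8% of the other peaks. Peaks at 300 to 399 were close to the members, with 57.5% ± 8.85 GC, a difference of 8.85 points and 66.5% (64.1 to 68.9) above both flanks.

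The rise had different make-up at promoters and away from them. Members within 1 kb of a TSS had 64.4% ± 7.32 GC and a CpG observed-over-expected ratio of 0.684 ± 0.274, where 1 means as many CpG dinucleotides as the C and G content gives. Members beyond 3 kb had 55.9% ± 6.26 GC with a ratio of only 0.240 ± 0.206. The other peaks had 57.3% and 0.4997 within 1 kb, and 47.2% and 0.200 beyond 3 kb. Peaks at 300 to 399 were closer to the members, with a mean GC content of 63.3% within 1 kb and 53.3% beyond 3 kb. A GC content of at least 55% together with a ratio of at least 0.65, values used to describe CpG islands, was found in 210 of 356 members at promoters (59.0%, 53.8 to 64.0) and in 13 of 343 beyond 3 kb (3.79%, 2.23 to 6.38). Among other peaks at promoters it was 30.5%. The part of GC content in the height of these peaks was not tested.

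**Figure D3:**
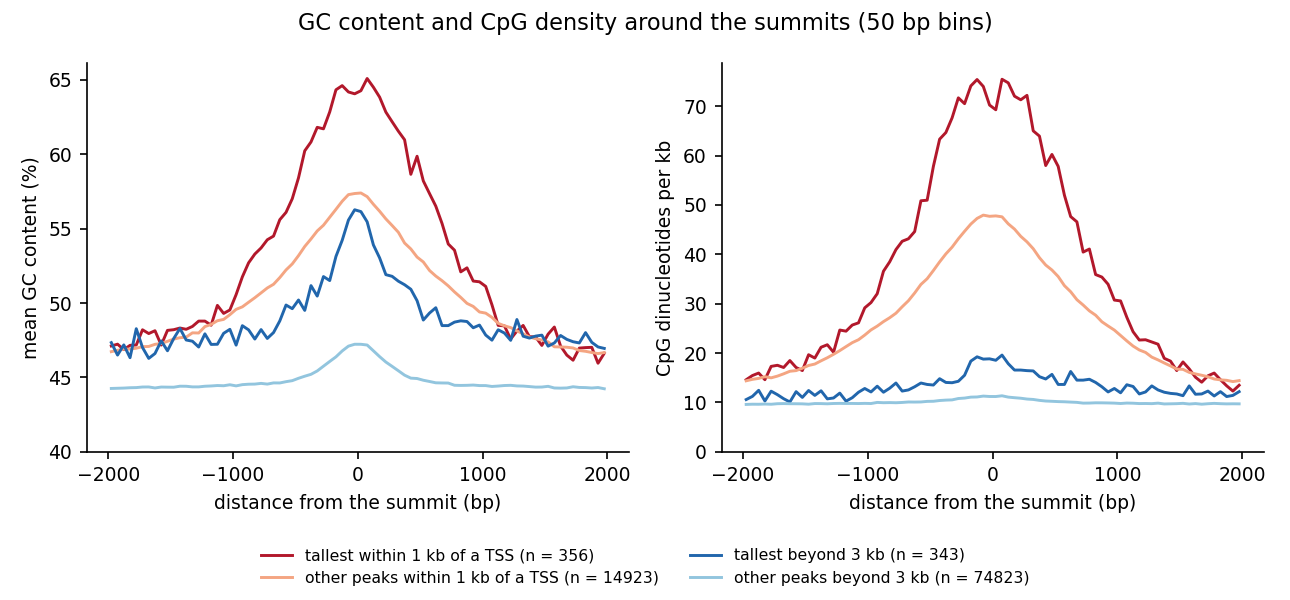
Mean GC content (percent, left, axis from 40) and CpG dinucleotides per kb (right) in bins of 50 bp against distance from the summit (bp), for the tallest and other peaks within 1 kb of a TSS and beyond 3 kb. GC content is raised around the summit in all 4 groups, most in the tallest peaks within 1 kb, whose highest bin (65.1%) is 75 bp from it, while the CpG line of the tallest peaks beyond 3 kb stays under 20 per kb.

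SP/KLF boxes were concentrated at the promoter summits. The box was in 204 of 356 windows (57.3%, 52.1 to 62.3) at the summit, in 14.04% and 15.4% of the flanks, and in 29.0% (28.3 to 29.7) of summits of other peaks at promoters. Of 32851 RefSeq promoters of 300 bp, 35.7% held it. At any distance from a TSS, the box was in 34.7% (31.4 to 38.1) of members and 8.26% of all other peaks. Peaks at 300 to 399 lay between, with 25.7% (23.6 to 27.96), so much of this contrast was shared with them. Their share at promoters alone was not computed. With a threshold of 300, which keeps the members in, the promoter share was 51.4% (48.2 to 54.6). In the 10 tallest members within 1 kb of a TSS the box was present at Slc8a2, Gfra2, Klf7, Dazap2, Bhlhe40, Tsc22d1, Itsn1 and Sin3a and absent from the windows at Slc25a42 and Dlg4. Beyond 3 kb it was found in 44 of 343 members (12.8%, 9.70 to 16.8) and 4.29% of other peaks. The box is itself GC-rich, and the part of GC content in its frequency was not tested.

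Other promoter elements were also more frequent at the summits of members near a TSS than at those of all other promoter peaks. The CCAAT box, the NF-Y site, was in 32.9% (28.2 to 37.9) of them against 20.8% of other promoter peaks, with flanks at 20.5% and 23.9%. The cAMP response element TGACGTCA, the site of CREB, was in 9 of 356 (2.53%, 1.34 to 4.73) against 0.791%, in 0 of 356 windows of either flank, and in 0 of 343 members beyond 3 kb. The member at Dusp1, an immediate early phosphatase, was 1 of these 9. The EGR box GCGNGGGCG was in 24 (6.74%, 4.57 to 9.83; other promoter peaks 3.85%), the ETS site CCGGAAG in 24 (6.74%; 4.48%) and the NRF1 core in 7 (1.97%, 0.956 to 4.002; 0.664%). In the RefSeq promoters of 300 bp the shares were 1.79% for the cAMP element, 5.55% for the EGR box, 8.86% for the ETS site, 37.4% for the CCAAT box and 1.75% for the NRF1 core. These windows are longer than the 200 bp of the members, and all 5 shares lie inside the members' intervals. Over peaks at any distance, members and peaks at 300 to 399 had overlapping intervals for all 5 elements. The shares were 25.2% and 22.4% for the CCAAT box, 1.17% and 0.789% for the cAMP element, and 4.55% and 2.96% for the EGR box. They were 3.77% and 3.48% for the ETS site, and 1.04% and 0.592% for the NRF1 core. The CTCF core was in 0 of 356 members at promoters (upper bound 1.07%) and 1 of 343 beyond 3 kb, against 0.422% and 0.412% of the other peaks there, shares that the members' intervals include.

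AP-1 sites had the opposite placement. They were in 56 of 343 members beyond 3 kb (16.3%, 12.8 to 20.6), in 4.08% and 4.96% of their flanks, and in 10.3% (10.1 to 10.5) of other peaks beyond 3 kb. Within 1 kb of a TSS they were in 14 of 356 members (3.93%, 2.36 to 6.49), close to the flanks (3.65% and 4.78%) and to other promoter peaks (5.33%). Beyond 3 kb the share was already 16.1% at a maximum signal of 200 to 299 and 16.9% at 300 to 399, and the interval of the members includes both values. Among peaks ranked by total signal instead, the share beyond 3 kb was 11.2% (7.95 to 15.5), an interval that includes the 10.3% of other peaks. Of the 343 members beyond 3 kb, 48 had an AP-1 site only, 36 an SP/KLF box only, 8 had both and 251 had neither. The bHLH E-box CAGATG, which neuronal NEUROD factors bind, was in 20.4% (16.5 to 24.99) of members beyond 3 kb and 17.6% of the other peaks there, within the interval.

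**Figure D4:**
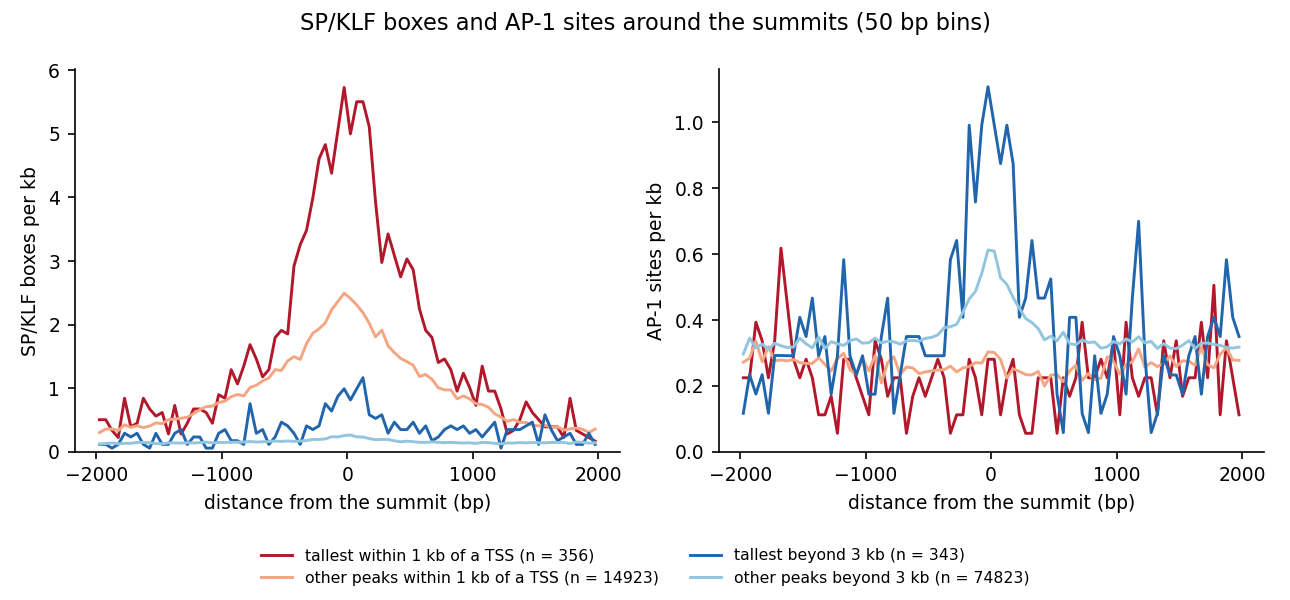
SP/KLF boxes per kb (left) and AP-1 sites per kb (right) in bins of 50 bp against distance from the summit (bp) for the same 4 groups of peaks. SP/KLF boxes reach more than 5 per kb at summits of the tallest peaks within 1 kb of a TSS, and AP-1 sites rise at the summits of both groups beyond 3 kb, with a jagged line for the 343 tallest because each bin holds few sites.

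The insulin response sequence was less frequent at the summits than beside them. It was in 35 of 770 members (4.55%, 3.29 to 6.26), in 10.9% and 9.22% of the flanks, and in 10.01% of the summits and 13.6% of the flanks of the other peaks. Peaks just under the threshold, at 300 to 399, had 5.33% (4.31 to 6.57) at the summit and 11.6% and 10.1% in the flanks, so the low share was not limited to the members. Within 1 kb of a TSS it was in 9 of 356 members (2.53%, 1.34 to 4.73) and 5.47% of other peaks, and beyond 3 kb in 20 of 343 (5.83%, 3.81 to 8.83). The highest member holding it in the 200 bp window was Klf7 (1263). The printed examples, Atp2b4 (538), Srrm4 (529) and Kirrel3 (516), are the highest with the match in the central 101 bp and no exon there. The sequence is A/T-rich, and the GC content at the summits was 10.3 points above the flanks; the part of base composition in its share was not tested.

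Tandem repeats marked a small set of members that included some of the highest. A summit window was called a tandem repeat when at least 70% of its bases equalled the base 1 period away, for periods up to 100 bp, a measure chosen after the sequences were seen. It held for 21 of 770 members (2.73%, 1.79 to 4.13) and 1.67% (1.59 to 1.75) of other peaks. Beyond 3 kb it held for 17 of 343 members (4.96%, 3.12 to 7.79) and 1.97% of the other peaks, and within 1 kb of a TSS for 1 of 356, at Eml1 (433), and 0.395%. In the top 20 there were 3, Wbp11 with a period of 35 bp and 96.9% matching bases, A630001O12Rik with 22 bp and 97.0%, and Lrig3 with 14 bp and 73.7%. Next in height were Sh3rf3 (805, 20 bp), Gm4651 (759, 30 bp), Dync1i1 (712, 19 bp), Agmat (656, 46 bp) and Rgs9 (648, 9 bp). GC content of the 21 windows was 50% to 75.5%, 18 of them had no CpG at all, and 8 were mostly marked as repeats in the genome sequence. Wbp11 had the highest CpG ratio of the set, 0.946. The part of the repeats in the height of these peaks was not tested.

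The window was mostly repeat-masked in 44 members (5.71%, 4.28 to 7.58), in 5.72% of peaks at 300 to 399 and in 15.7% of all other peaks. A near-identical copy elsewhere in the genome (at least 95% identity over at least 90% of the window) was found for 8 members (1.04%, 0.527 to 2.04), 0.920% of peaks at 300 to 399 and 2.97% of all other peaks. These 8 were assigned to Dync1i1 (712), Rgs9 (648), Gja5 (529), Tacc2 (517), Zfp974 (452), Cpne5 (439), Tex14 (411) and Pnldc1 (408). Tacc2 and Tex14 apart, these are also among the tandem repeat members, as are 8 of the 44 masked windows. Whether reads map uniquely to these windows was not tested.

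The deposited annotation assigned 719 genes to the members, 670 of them with 1 member, 46 with 2 and 3 with 3. The genes with 3 were Nrxn3, the presynaptic adhesion molecule neurexin 3 (662, 579 and 452, all intronic), Ttc7 (499, 477 and 430) and the potassium channel subunit gene Kcnab2 (480, 479 and 416). Of 21992 protein-coding genes, 641 (2.91%) had a member, 335 (1.52%) had one within 1 kb of a TSS, and 15557 (70.7%) had any peak. The assigned gene was protein-coding for 91.0% of members and 87.9% of other peaks. MicroRNA genes took 26 of 765 members (3.40%, 2.33 to 4.93) and 2.19% of other peaks. The neuronal Mir124a-1 was among them with 447 over 4465 bp; it was picked out after its values were seen.

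The 16 gene lists below were chosen with earlier results of these data known, and the lists differ in gene length and number of peaks, so a list with more peaks has more chances to hold a member. Over all protein-coding genes 2.91% had a member, and the median highest maximum signal per gene was 119, with 0 for genes without a peak, or 150 over genes with a peak. Calcium exchangers and pumps, which clear calcium from neurons, had a member in 6 of 9 genes and a median of 454. Their members were Slc8a2 (1478), the endoplasmic reticulum pump gene Atp2a2 (671, 233 bp upstream of the TSS) and the plasma membrane pump genes Atp2b4 (538), Atp2b2 (470), Atp2b3 (454, on X) and Atp2b1 (448), these last 4 all at least 14232 bp from the TSS. Postsynaptic scaffolds and glutamate receptors had a member in 5 of 18 genes (median 305), among them Dlg4 (887), Shank1 (609) and the NMDA receptor gene Grin2b (442) within 1 kb, and the AMPA receptor gene Gria1 (434) in an intron.

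Presynaptic vesicle genes had 3 of 16, none of them within 1 kb of a TSS: Cplx2 (622), Snap25 (423) and the vesicular glutamate transporter gene Slc17a7 (413, 1494 bp upstream). Neuronal RNA-binding proteins had 6 of 17 (median 276): the splicing regulators Nova2 (556), Celf4 (492), Celf5 (490), Celf2 (459), Rbfox3 (412) and Celf6 (407). Rbfox3 had 101 peaks in all and Celf6 had 4, which shows how far the chances differ within a list. Krüppel-like and Sp factors had 4 of 17, all with a member within 1 kb: Klf7 (1263), Sp4 (690), Klf13 (594) and Klf10, whose promoter member had 455. Circadian clock genes had 3 of 17, all within 1 kb: Bhlhe40 (1046), the nuclear receptor gene Nr1d2 (623) and the cryptochrome gene Cry2 (438).

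Immediate early genes, which respond to neuronal activity, had 4 of 20 (median 301.5): Bdnf (535, 271 bp downstream of a TSS), Fosl2 (518), Dusp1 (499) and Btg2 (494, 4009 bp upstream). Gfra2 and Bdnf were the 2 of 14 neurotrophic factors and receptors. Mef2d (555) and Emx1 (404), the latter over 26229 bp and within an intron of Sfxn5, were the 2 of 15 factors of hippocampal excitatory neurons. Among regulators of mitochondrial biogenesis only the orphan nuclear receptor gene Esrrg had a member (428, 175658 bp from the TSS), 1 of 14.

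In 6 lists no gene had a member, and with 2.91% of all protein-coding genes having one, a count of 0 in lists of this size is near that share. The 9 genes linked to PARIS had their highest maximum signals at Camk2a (349), Mdm4 (239), Nrf1 (220), G6pc (171), Ppargc1a (168) and Zfp746 itself (166). The highest values of the markers of other cell types were 343 at Mbp for oligodendrocytes, 328 at Slc1a3 for astrocytes and 284 at Csf1r for microglia. Interneuron markers and ribosomal protein genes (highest Rpl11, 269) also had 0 members. A peak near a marker gene does not measure how many cells of a type were present.

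**Figure D5:**
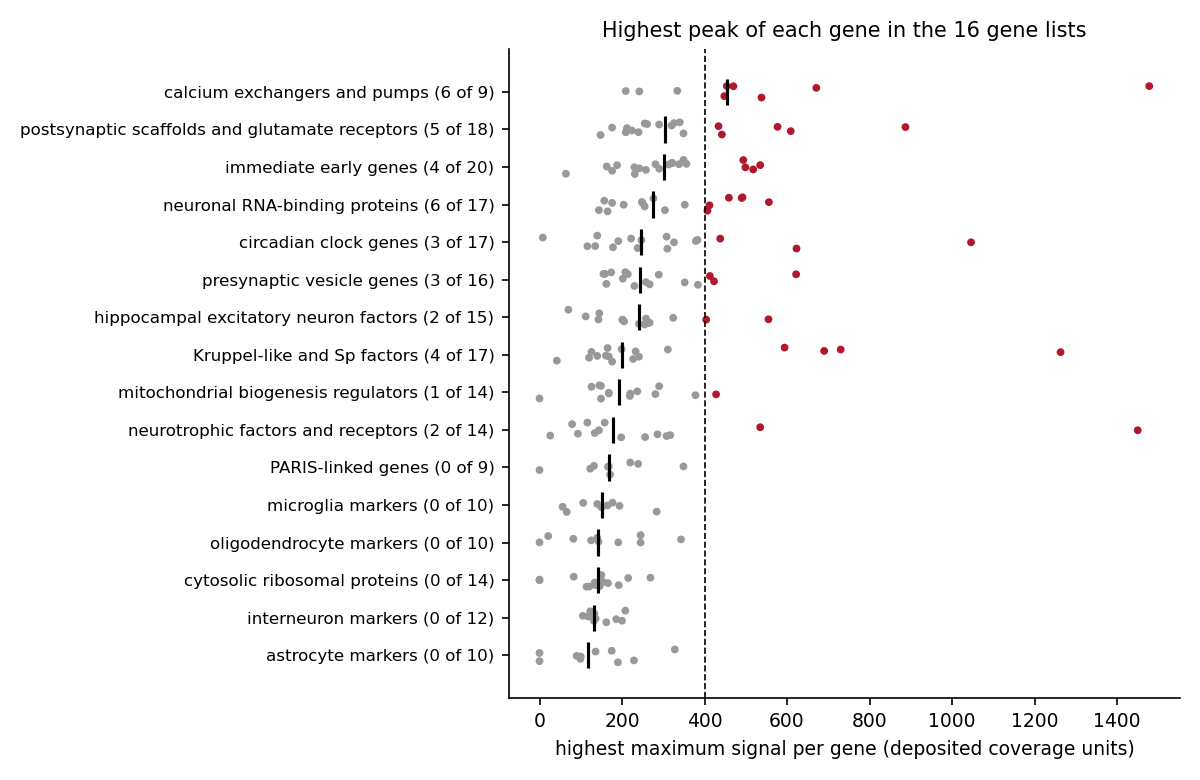
Highest maximum signal (deposited coverage units) among the peaks assigned to each gene, as 1 point per gene, in 16 gene lists ordered by their median (black line); genes with no peak are at 0, the dashed line is the threshold of 400, and the counts beside the names are genes with a tallest peak. Calcium exchangers and pumps have a median of 454, and the markers of oligodendrocytes, astrocytes, microglia and interneurons all lie under 400.

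The median distance from a member to the nearest other member was 330952 bp, and 139 of 770 (18.1%) had another within 50 kb. Whether members lay closer together than randomly placed peaks would was not tested. In steps of at most 50 kb, 11 runs of 3 or more members formed. The longest run had 5 members over chr2:30613711-30720585 near Cstad, Gm14486 and Mir3089 (561, 435, 508, 406 and 400). Shank1, Syt3 and Lrrc4b shared a run of 4 over chr7:44335345-44431325 (609, 431, 799 and 692), and Ppp1r1b, Stard3, Tcap and Erbb2 had 1 each over chr11:98345344-98419958 (512, 470, 426 and 535). Beyond 3 kb, members had 2.68 other peaks within 10 kb on average and the other peaks 1.45, whereas within 1 kb of a TSS the values were 2.34 and 2.09.

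Chromosomes differed in how many members they held per length. The 19 autosomes had 0.325 ± 0.108 members per Mb (mean and SD over chromosomes), from 0.156 on chromosome 1 to 0.632 on chromosome 11, which held 75. The X chromosome had 9 members, 0.0550 per Mb, a ratio of 0.173 to the pooled autosomes, and the same ratio was 0.297 for the other peaks. As a share of the peaks on X, members were 0.456% (0.240 to 0.864), and on the autosomes 0.779%, inside that interval. The sex of the animals is not given by the labels. The Y chromosome had 93 peaks and 0 members.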

How the data were processed

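CUT&Tag libraries of hippocampal chromatin, 1 anti-FLAG and 1 anti-IgG, were sequenced as paired ends; per the labels' protocols and the submitters' processing notes, reads were trimmed, aligned to mm10 with Bowtie2, filtered for quality and duplicates, and peaks were called with SEACR against the IgG library, while deepTools made signal tracks not analysed here. Versions, the SEACR mode and the scaling of the coverage are not given in the sources used here. The authors deposited, for each peak, the total signal and the maximum signal (whole-number coverage), and a table of annotation classes with the signed distance in bp to the TSS, whose tool is not stated. Library depth is unknown. The members and gene lists were chosen with earlier results of these data known. Peaks with a maximum signal of at least 400 were joined to the annotation by the region of maximum. GC content, CpG ratio and motifs on both strands were counted in 200 bp windows and in flanks 1000 bp away with Python 3.11.15, numpy 2.4.6, pandas 2.3.3 and pysam 0.24.0, on GRCm38.p6 and GENCODE M21; copies were sought with minimap2 2.31-r1302, which can miss very frequent repeats. Scripts were tested on simulated data. Named were the genes of the 20 tallest, 5 widest and 5 farthest members, those 5 on each side of the threshold, genes with 3 members, list genes with a member (all where at most 8 have one), and members with copies or repeats; genes beside printed sequences, tandem repeats and runs were named after their values were seen. Alternatives were other thresholds, ranking by total signal, merging, other windows, flanks, distances and annotation, and leaving out repeats, copies and unplaced chromosomes. A result on 1 item is not reported here.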

Additional observations from a re-analysis of the deposited data

How the results depend on the processing

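With a threshold of 300 there were 2292 peaks and 1926 genes, 41.1% lay within 1 kb of a TSS and 50.7% in the promoter class, and GC content at the summit was 9.33 points above the flanks. With 500 there were 302 peaks and 297 genes, with 51.0% within 1 kb and 58.9% in the promoter class. Fewer or more peaks pass by construction. Ranking by total signal gave 55.5% within 1 kb, 65.0% in the promoter class and 13.7% distal intergenic, sharing 422 peaks with the members; the AP-1 share beyond 3 kb was then 11.2% (7.95 to 15.5), an interval that includes the 10.3% of other peaks, and the cause was not tested. By construction, a distance of 500 bp gave 39.9% and 3 kb gave 55.4% in place of 46.2%. Flanks 2000 bp away gave a GC difference of 12.6 points, and 400 bp windows gave a summit minus flank difference of -10 points for the insulin response sequence in place of -5.52. The SP/KLF share at promoters was 51.4% with a threshold of 300. Of 78 alternative values for 9 results, 60 stayed within the interval or within 1.5 times the count and 0 changed sign; 23 were added after the data were seen, among them those without the 21 tandem repeat members (750 peaks, 47.3% within 1 kb). No paired analysis was possible because each antibody has 1 library. These results rest on 1 library with no replicate error and unknown depth, and IgG coverage was not analysed here.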
